A study of Sus scrofa with 30 samples.

Results

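The cytosolic ribosomal protein genes are the genes that encode the protein part of the ribosome outside the mitochondria. They were taken as the genes whose array symbol starts with RPL or RPS followed by a digit, with RPSA, RPLP0, RPLP1 and RPLP2 added and the S6 kinases (RPS6K) left out. This gave 64 genes out of 6765 with a single symbol on the array, measured by 96 probe sets (groups of short probes against 1 transcript). For each of the 24 genes with several probe sets, the probe set with the highest mean signal stands for the gene, and its other probe sets served as a check. The 64 comprised 31 proteins of the large subunit, 24 of the small subunit, the 3 stalk proteins RPLP0, RPLP1 and RPLP2, 5 ribosomal-protein-like genes (RPL7L1, RPL22L1, RPL26L1, RPL36AL and RPS27L), and RPS19BP1, which matches the letters of the rule but encodes a protein that binds RPS19 and is not itself a ribosomal protein.

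The ribosome reads messenger RNA on its small subunit and joins amino acids on its large subunit, and its proteins are made in equal numbers and assembled with ribosomal RNA in the nucleolus. Their messenger RNAs are abundant and long-lived and mostly start with a pyrimidine tract (5'TOP), through which the mTOR kinase pathway controls how strongly they are translated. In brain, protein synthesis is known to stop during ischaemia and to recover slowly after blood flow returns, largely through control of translation initiation. Ribosomal protein genes also have many processed pseudogenes and near-identical copies in mammalian genomes, whose signal an array probe may not tell apart from the parent gene.

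RNA came from the cerebral cortex of Swedish triple breed pigs of both sexes, aged 12 to 14 weeks, under pentobarbital anaesthesia with mechanical ventilation, in which ventricular fibrillation was induced by electric current. Pigs of 6 groups were resuscitated after 12 min of arrest, by 8 min of closed-chest compression and a countershock. From 1 min into compression to 50 min of restored circulation they received either methylene blue (7.5 mg/kg/h) in saline (groups MB30, MB60 and MB180, named by the minutes of restored circulation) or the same volume of saline alone (55 mL/kg/h, groups SAL30, SAL60 and SAL180). Methylene blue, a redox-active dye, is known to block nitric oxide synthesis and its signalling through guanylate cyclase. The other 4 groups had arrest without resuscitation, of 5, 20 or 30 min (CA5, CA20 and CA30) or with the brain removed at once (CA0). Even CA0, the reference for arrest and reperfusion, therefore had fibrillation, and no group was without arrest. Each group had 3 arrays, labelled as biological replicates, and all pigs were killed with potassium chloride.

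The arrays give an intensity in arbitrary units, scaled to a common mean on each array, so that a difference is relative to the rest of the transcripts on that array. Each of the neuron, astrocyte and oligodendrocyte lists held bright markers, as the labelled tissue requires, with mean intensities of 11561 for SNAP25, 6809 for GFAP and 15260 for MBP. Other markers were dim: SLC1A3 (214) and ALDH1L1 (157) of astrocytes, and OLIG2 (285) and CNP (174) of oligodendrocytes. The dimmest neuron marker was GAD2 with 1054. The 3'/5' ratio of control transcripts, which is higher where RNA is degraded or copied incompletely, lay between 0.71 and 1.34 on the log2 scale on the 9 MB arrays, between 0.98 and 2.59 on the 9 SAL arrays and between 1.06 and 2.70 on the 12 CA arrays. It was above 2 on CA20 replicates 2 and 3, SAL60 replicate 2 and SAL180 replicate 3, and SAL30 replicate 1 had the lowest rank correlation with the other arrays. Counts and calls of ribosomal protein genes in the limma comparisons that these 5 arrays move are given with and without them.

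The ribosomal protein genes were among the brightest signals of the cortex: 59 of the 64 had a mean intensity above 1000, where the median probe set of an array had 87.1 to 108. A probe set's brightness also depends on its probes, so the genes are not ranked against each other by it. The brightest probe sets were those of RPS18, with a mean of 13704, RPL31 with 9961, RPS27A with 9751, RPL17 with 9381 and RPS23 with 8797. RPS27A is made as a fusion of ubiquitin with a small subunit protein. At the other end, RPS19BP1 had 188, RPL26 36.1, RPL30 26.4 and RPS15A 12.9. The last pair lay below the filter on low values, a mean intensity of about 29.5 over all arrays, so 62 genes were tested and the results for RPL30 and RPS15A stay unknown here. RPS27L, with 602, was the dimmest of the remaining genes.

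The genes moved together from array to array. Over the 30 arrays, the median deviation of the 62 genes from their own means ran from -0.21 (MB180 replicate 1) to 0.21 (SAL30 replicate 1) on the log2 scale, and the pooled standard deviation of this median between arrays of the same group was 0.12. Among the 59 bright genes, the median correlation of the residuals from the group means was 0.55 over 1711 pairs, and 86.1% of pairs were above 0. These residuals share the array, its scaling and its RNA quality, so the correlations are a description only. Averaged over its pairs with the other bright genes, the correlation was negative for RPL7L1 (-0.34), RPL26L1 (-0.29) and RPL37 (-0.18). Genes outside the set were compared with the mean residual of the 59 bright genes, over 7761 probe sets and 30 arrays. The most alike were B2M (r = 0.93), EF1ALPHA (0.91), FTL (0.91), LOC100525692 (0.90), ATP5E (0.89), ACTG1 (0.89), FAU (0.87), TUBA1B (0.87), APOE (0.87) and CLU (0.86). A correlation with a mean is not the same measure as an average over pairs, so these values do not rank outside genes against members. Single genes differed in how steady they were: the residual standard deviation was 0.10 for RPL3 and RPL4 and 0.11 for RPS6 on the log2 scale, and 0.29, 0.41 and 0.42 for the dim RPL26, RPL30 and RPS15A.

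**Figure D1:**
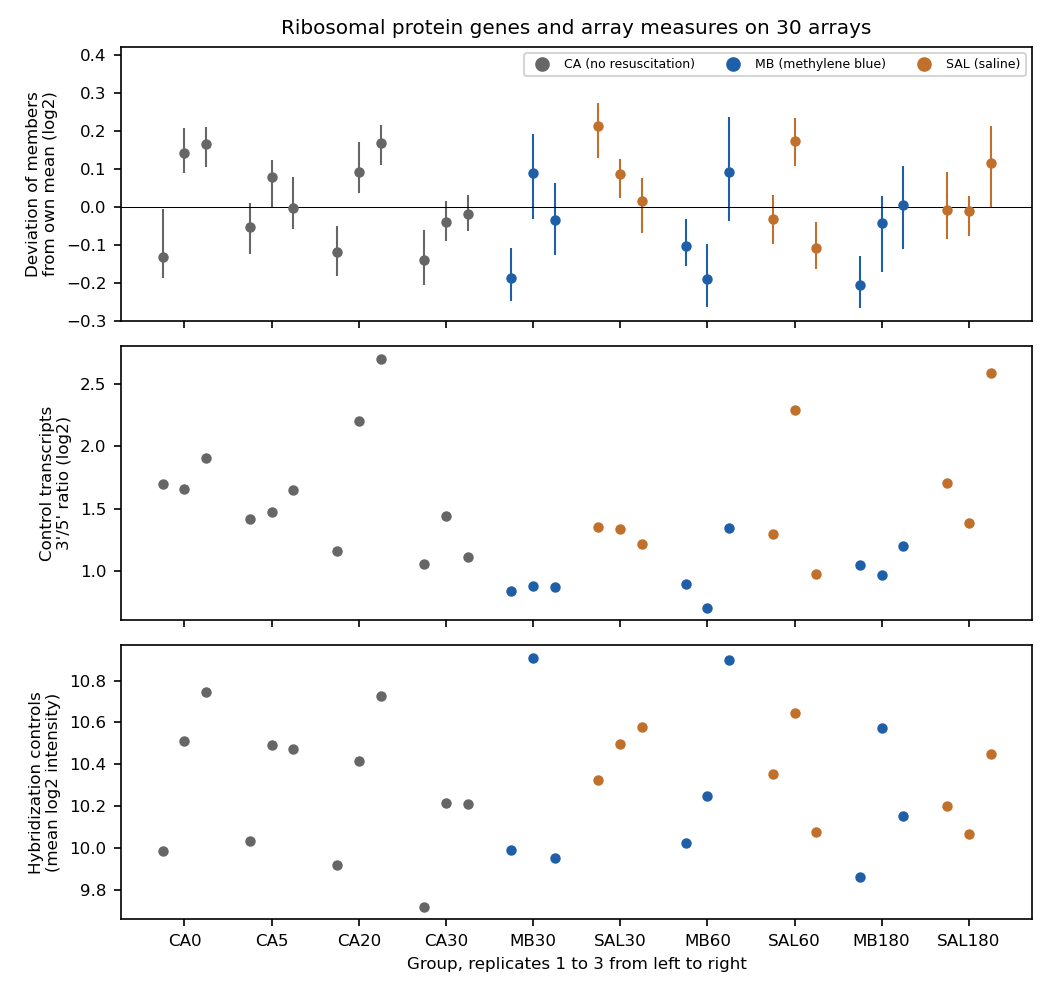
Top, median deviation of the 62 tested ribosomal protein genes from their own means over 30 arrays (log2, points) with the interquartile range (bars). Middle, log2 3'/5' ratio of control transcripts. Bottom, mean log2 intensity of the spiked hybridization controls. Each point is 1 array and colours mark CA, MB and SAL groups. MB180 replicate 1 has the lowest median (-0.21) and SAL30 replicate 1 the highest (0.21), and the MB arrays have 3'/5' ratios of 0.71 to 1.34.

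During arrest without resuscitation no ribosomal protein gene changed past the threshold. At 5, 20 and 30 min against CA0, 0 of 62 genes had an adjusted p under 0.05 in limma (all probe sets: 0% in CA5, 0.0119% in CA20 and 0.0119% in CA30), and 0, 0 and 1 had an unadjusted p under 0.05 (all probe sets: 1.89%, 4.24% and 4.06%). A linear trend over arrest duration also passed for 0 of 62 (all probe sets: 0.00595%; unadjusted 0 of 62, all probe sets 3.15%). The median log2 difference of the genes was -0.063 in CA5, -0.013 in CA20 and -0.14 in CA30, where the median over all probe sets was 0.0062, 0.0063 and 0.015. With 1 array left out, these medians ran from -0.15 to -0.019 in CA5, from -0.11 to 0.067 in CA20 and from -0.23 to -0.097 in CA30. Leaving out the 5 arrays that stood apart kept only replicate 1 of CA20, and the CA20 median was then -0.20, a value of that 1 array. At 30 min, 58 of 62 genes had a negative estimate, a shift of about the size of the standard deviation between arrays of 1 group. The lowest p at 30 min was that of RPS9, with a log2 difference of -0.23 ± 0.11 (SE, adjusted p = 0.985), followed by RPL19 (-0.23) and RPS10 (-0.26). At 5 min the lowest p-values were those of RPS10 (-0.19), RPL37 (-0.18) and RPS21 (-0.20), and at 20 min those of RPL7L1 (-0.14), RPS19BP1 (-0.21) and RPL15 (-0.18). The 95% interval of the difference lay within 1.5-fold in either direction for 61 genes in CA5, 61 in CA20 and 57 in CA30.

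Reperfusion with saline alone gave the same picture. Against CA0, 0 of 62 genes passed at 30, 60 or 180 min (all probe sets: 0.196%, 0.315% and 0.875%, the last with 0.619% higher and 0.256% lower), and 1 of 62 had an unadjusted p under 0.05 at each time (all probe sets: 7.38%, 6.3% and 8.73%). The median log2 difference was 0.026 in SAL30, -0.067 in SAL60 and -0.051 in SAL180, against 0.019, 0.012 and 0.00088 over all probe sets. With 1 array left out the medians ran from -0.062 to 0.080, from -0.16 to 0.00037 and from -0.13 to 0.011, so that none had a settled sign. RPL37, a small zinc-binding protein of the large subunit, was 1 of the 3 genes with the lowest p at all 3 times. It had 1213, 1286 and 1601 in the SAL30 arrays, 1510, 1240 and 1260 in SAL60 and 1287, 1518 and 1091 in SAL180, against 1495, 1627 and 1748 in CA0. At each time the highest SAL array lay above the lowest CA0 array and the other SAL arrays lay below all of CA0, and the log2 differences were -0.25, -0.28 and -0.33 (adjusted p = 0.694, 0.78 and 0.412). Next to it stood RPL7L1 (-0.24) and RPS4X (0.20) at 30 min, RPS19BP1 (-0.27) and RPL22L1 (-0.20) at 60 min, and RPL15 (-0.22) and RPLP2 (-0.24) at 180 min, none of which passed. The interval lay within 1.5-fold for 60, 61 and 59 of the 62 genes.

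**Figure D2:**
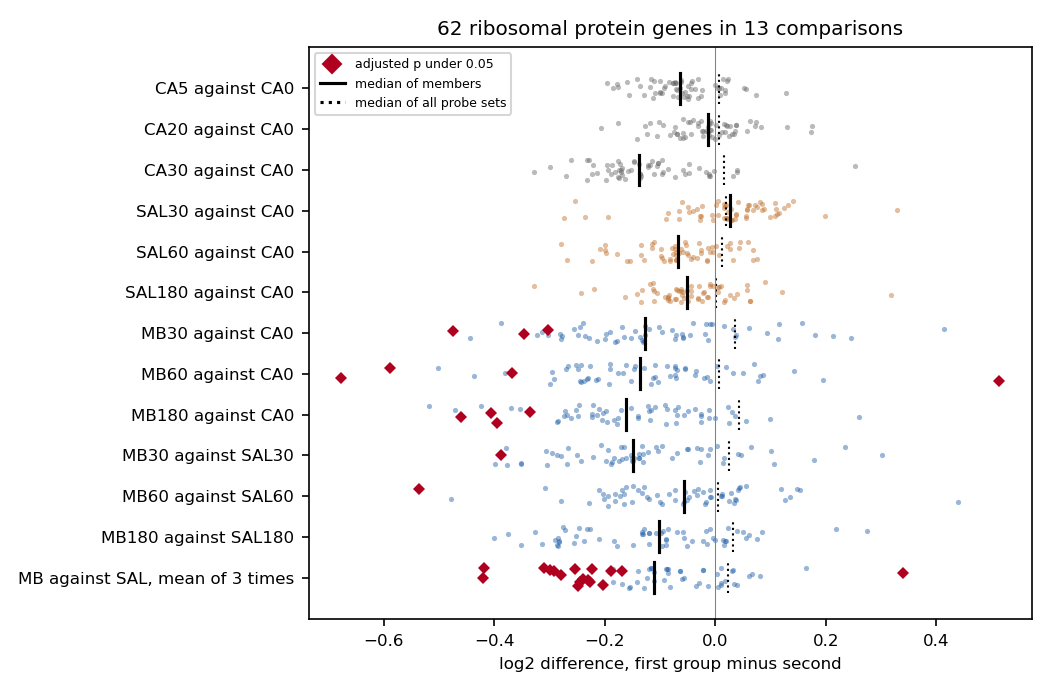
Log2 differences (x axis, first group minus second) of the 62 ribosomal protein genes in 13 comparisons (y axis). Points are genes, red diamonds have an adjusted p under 0.05, solid lines are medians of the 62 genes and dotted lines medians of all tested probe sets. CA and SAL comparisons with CA0 hold no diamond, and the mean of MB against SAL holds 16 below 0 and 1 above.

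With methylene blue, part of the set was lower than with saline, and most of these calls were lost with the 3'/5' ratio as a covariate. The 3'/5' ratio of control transcripts averaged 0.97 ± 0.19 on the MB arrays and 1.57 ± 0.53 on the SAL arrays (log2, SD, n = 9 each). With this ratio as a covariate 3 of 62 genes passed, RPS9, RPS6 and RPL26L1, and the median of the set was 0.011. Calls over all probe sets dropped as well, from 25.2% to 8.66%, so the loss is not particular to this set. All values that follow are without that covariate unless it is named. Over the mean of the 3 times, 17 of 62 genes passed, a share of 27.4% that lay near that of all probe sets, 25.2%. Of these, 16 fell (25.8% of the genes, all probe sets 11.4%) and 1 rose (1.61%, all probe sets 13.8%). The changes were small: the median log2 difference of the 62 genes was -0.11, where that of all probe sets was 0.024, and 61 of 62 intervals lay within 1.5-fold. That median was -0.048 without the 5 arrays that stood apart. The estimate was negative for 47 genes, and 39 were lower with methylene blue at 3 of 3 times (all probe sets 26.5%) while 5 were higher at all of them (all probe sets 31.3%). By class, 5 of 23 small subunit genes fell, 8 of 30 large subunit genes fell and 1 rose, 0 of 3 stalk genes passed, and 3 of 5 ribosomal-protein-like genes fell. In a piece of cortex, fewer cells of a type and less RNA per cell cannot be told apart.

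**Figure D3:**
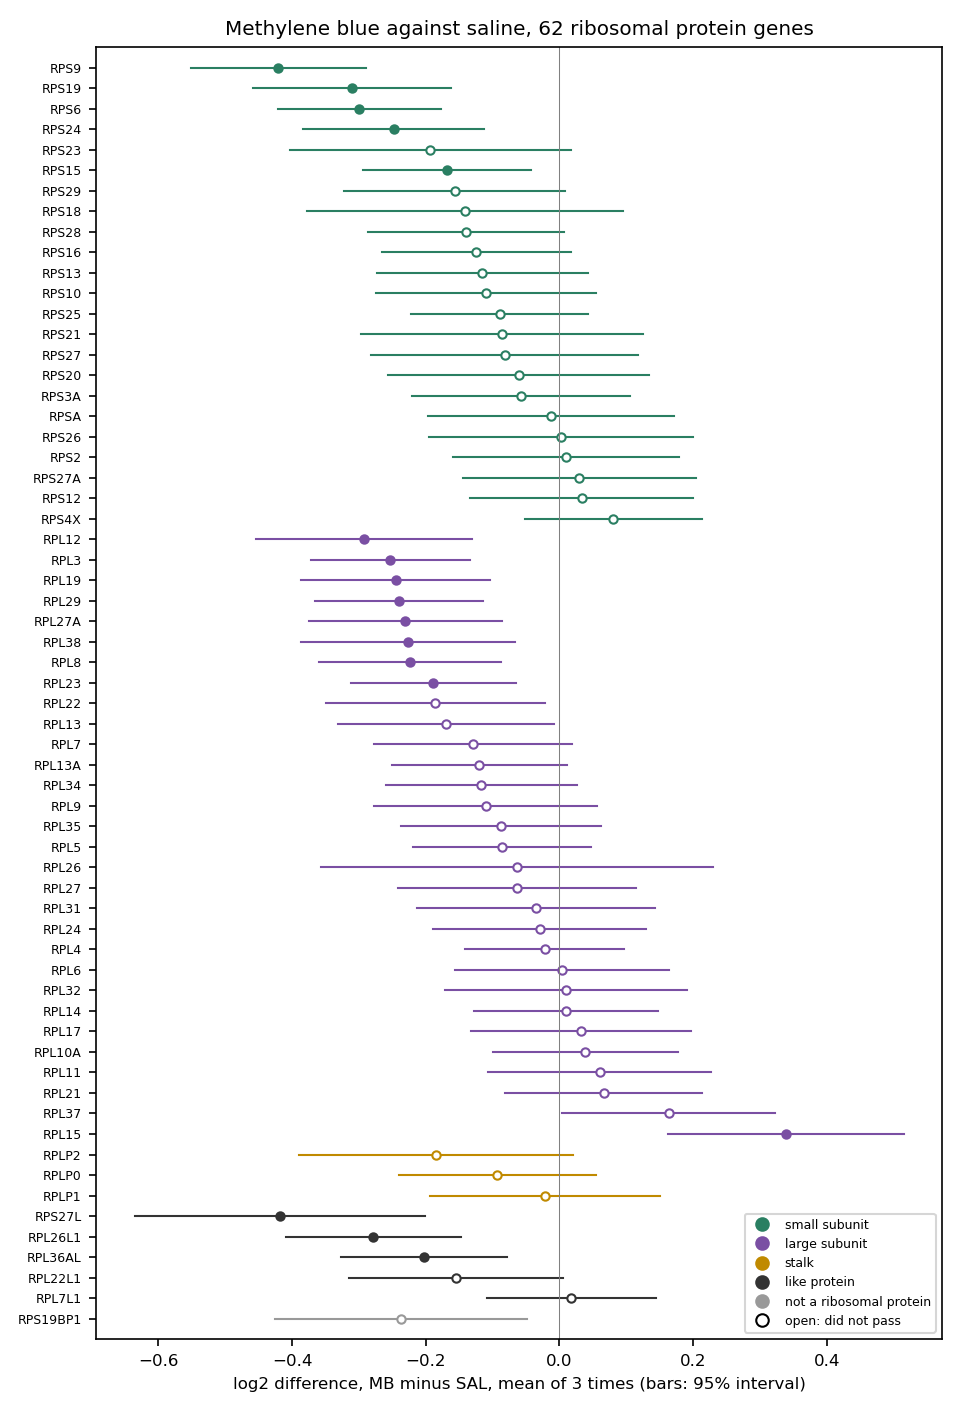
Log2 difference between methylene blue and saline (x axis, mean of 3 times) for the 62 tested genes (y axis, by class and size). Points are limma estimates, filled where the adjusted p is under 0.05, and bars are 95% intervals. RPS9 has the lowest estimate (-0.42) and RPL15 the highest (0.34).

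Among the small subunit genes, RPS9 had the smallest p-value of the set. Its protein lies near the entrance of the messenger RNA channel and bears on the accuracy of decoding. It had intensities of 3328, 3481 and 3819 in MB30, 3211, 3227 and 2573 in MB60 and 3354, 3083 and 3375 in MB180, against 4755, 4172 and 4641 in SAL30, 4049, 4885 and 4124 in SAL60 and 4371, 3968 and 4400 in SAL180. All 9 MB arrays lay below all 9 SAL arrays, which 2 of the 62 genes (RPS9 and RPS19) and 0.827% of all probe sets showed. RPS9 averaged 3272 ± 334 with methylene blue and 4374 ± 326 with saline (SD, n = 9 each), a log2 difference of -0.42 ± 0.063 (SE, adjusted p = 6.76e-05) or 0.747 times the saline level. RPS19, which is needed to mature the small subunit RNA and is mutated in Diamond-Blackfan anaemia, ran from 5469 through a median of 6018 to 6745 on the MB arrays and from 6815 through 7153 to 9256 on the SAL arrays, with no overlap. It fell by 0.31 ± 0.072 (log2, SE, adjusted p = 0.00292), and its value with the 3'/5' covariate, -0.19, did not pass (0.117).

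RPS6, the small subunit protein that S6 kinases phosphorylate downstream of mTOR, had 3842, 4259 and 4490 in MB30, 4029, 3731 and 3816 in MB60 and 4131, 3831 and 3869 in MB180, against 6038, 4876 and 4709 in SAL30, 4489, 5298 and 4593 in SAL60 and 4793, 4592 and 5041 in SAL180. Only the highest MB array, replicate 3 at 30 min, reached the lowest SAL array. RPS6 averaged 4000 ± 250 with methylene blue and 4936 ± 483 with saline (SD, n = 9 each), and its log2 difference was -0.30 ± 0.059 (adjusted p = 0.000853). A second, dim probe set of RPS6 rose by 0.59 (adjusted p = 0.0021), so the direction differs between the probe sets of this gene. RPS24, another small subunit protein mutated in Diamond-Blackfan anaemia, fell by 0.25 (adjusted p = 0.00789), and RPS15, a protein of the small subunit head, by 0.17 (adjusted p = 0.0443), and neither passed with the 3'/5' covariate. The call for RPS15 was lost in 14 of 30 fits that left out 1 array (adjusted p up to 0.114): CA5 replicate 2, CA30 replicates 1 and 2, SAL30 replicates 1 and 2, SAL60 replicates 1 and 2, SAL180 replicate 3, MB30 replicates 1 and 3, MB60 replicates 1 and 2, or MB180 replicates 2 and 3. The other 18 small subunit genes did not pass. They include RPSA, also known as a laminin receptor (-0.013), RPS4X (0.081), RPS27A (0.030), RPS23 (-0.19) and RPS18 (-0.14).

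Of the large subunit genes that fell, RPL12 had the largest estimate. Its protein forms the base of the stalk with RPLP0. RPL12 ran from 3822 through a median of 4446 to 4975 on the MB arrays and from 4827 through 5497 to 6584 on the SAL arrays, overlapping at the edge, and fell by 0.29 ± 0.078 (adjusted p = 0.00827), where a dim probe set of the gene had 0.22 (0.27). RPL3, which reaches the peptidyl transferase centre, ran from 3355 through 3771 to 4093 with methylene blue and from 4004 through 4429 to 5048 with saline and fell by 0.25 ± 0.058 (adjusted p = 0.00266). RPL19 fell by 0.25 (adjusted p = 0.0111), RPL29 by 0.24 (0.00599), RPL27A by 0.23 (0.0183), RPL38 by 0.23 (0.0337), RPL8 by 0.22 (0.0156) and RPL23 by 0.19 (0.0228). A dim probe set of RPL23 rose by 0.60 (adjusted p = 0.00159). None of these 8 large subunit genes passed with the 3'/5' covariate, where their log2 differences lay between -0.22 for RPL12 and -0.072 for RPL38. RPL38 is known in mouse for its part in the translation of Hox messenger RNAs, RPL8 lies by the peptidyl transferase centre, and RPL23 can bind the p53 regulator MDM2. The call for RPL27A was lost without SAL180 replicate 3 (adjusted p = 0.0515). That for RPL38 was lost in 9 fits that left out 1 array (adjusted p up to 0.0834): SAL30 replicate 1, SAL60 replicate 2, SAL180 replicate 3, MB30 replicates 1 and 3, MB60 replicates 1 and 2, or MB180 replicates 1 and 3. RPL5 and RPL11, which carry the small 5S RNA into the large subunit and also bind MDM2, had log2 differences of -0.086 and 0.060 and did not pass, and RPL13A, known in human cells for an interferon-controlled block of translation, had -0.12.

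RPL15, a core protein of the large subunit, was the exception in direction. It had 3804, 5165 and 4508 in MB30, 4039, 5431 and 4969 in MB60 and 3133, 3817 and 3507 in MB180, against 3683, 3409 and 3754 in SAL30, 3472, 3367 and 3734 in SAL60 and 3158, 3377 and 2213 in SAL180. All MB30 and MB60 arrays lay above the SAL arrays of their own time, and the groups overlapped at 180 min. RPL15 averaged 4264 ± 794 with methylene blue and 3352 ± 470 with saline (SD, n = 9 each), with a log2 difference of 0.34 ± 0.086 (adjusted p = 0.00554) or 1.26 times the saline level. With the 3'/5' covariate it was 0.24 and did not pass (adjusted p = 0.134). RPL37 came next among the positive estimates with 0.16 and did not pass (adjusted p = 0.122).

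The 3 stalk proteins, which recruit elongation factors to the large subunit, did not pass: RPLP0 had a log2 difference of -0.093, RPLP1 -0.022 and RPLP2 -0.18. Among the ribosomal-protein-like genes, RPS27L, a p53-induced relative of RPS27, had 463, 504 and 543 in MB30, 448, 382 and 448 in MB60 and 537, 489 and 411 in MB180, against 845, 655 and 513 in SAL30, 558, 667 and 575 in SAL60 and 634, 584 and 686 in SAL180. Only SAL30 replicate 3 lay within the range of the MB arrays, and the highest value on any array was 1165, on CA20 replicate 2, where the other CA20 arrays had 593 and 681. RPS27L averaged 470 ± 54.1 with methylene blue and 635 ± 96.7 with saline (SD, n = 9 each), and its log2 difference was -0.42 ± 0.11 (adjusted p = 0.0054), and -0.29 with the 3'/5' covariate (0.135). RPL26L1, a near copy of RPL26, had 969, 692 and 790 in MB30, 968, 1001 and 804 in MB60 and 1036, 1025 and 939 in MB180, against 1162, 985 and 1052 in SAL30, 1064, 1059 and 1081 in SAL60 and 1257, 1058 and 1238 in SAL180. Within each time, all MB arrays were below all SAL arrays, and RPL26L1 fell by 0.28 ± 0.064 (adjusted p = 0.00264). RPL36AL, a close relative of RPL36A, fell by 0.20 (adjusted p = 0.016) and did not pass with the 3'/5' covariate. RPL22L1 (-0.15), RPL7L1 (0.018), a nucleolar protein, and RPS19BP1 (-0.24, adjusted p = 0.0575) did not pass.

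For 2 paralog pairs the ratio of the like gene to its relative was compared within arrays. The log2 ratio of RPS27L to RPS27 averaged -3.60 ± 0.23 with methylene blue and -3.26 ± 0.14 with saline (SD, n = 9 each), a difference of -0.34 (two-sided exact permutation test within times over 8000 relabellings, p = 0.00375, adjusted over 2 pairs 0.0075). Without the 5 arrays that stood apart it was -0.32 (9 MB and 6 SAL arrays, exact permutation over 1000 relabellings, p = 0.023, adjusted 0.046). That of RPL22L1 to RPL22 averaged -2.44 ± 0.20 with methylene blue and -2.47 ± 0.11 with saline, and the difference of 0.031 did not pass (exact permutation p = 0.65, adjusted 0.65). The first result describes an unequal difference of the RPS27L and RPS27 signals, not that RPS27 was constant. RPS27L had already passed on these same arrays. The ratio was not tested with the 3'/5' covariate, with which RPS27L did not pass in limma. The probe sets also differ in brightness, with means of 602 and 6018, so a ratio within arrays need not cancel RNA quality.

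**Figure D4:**
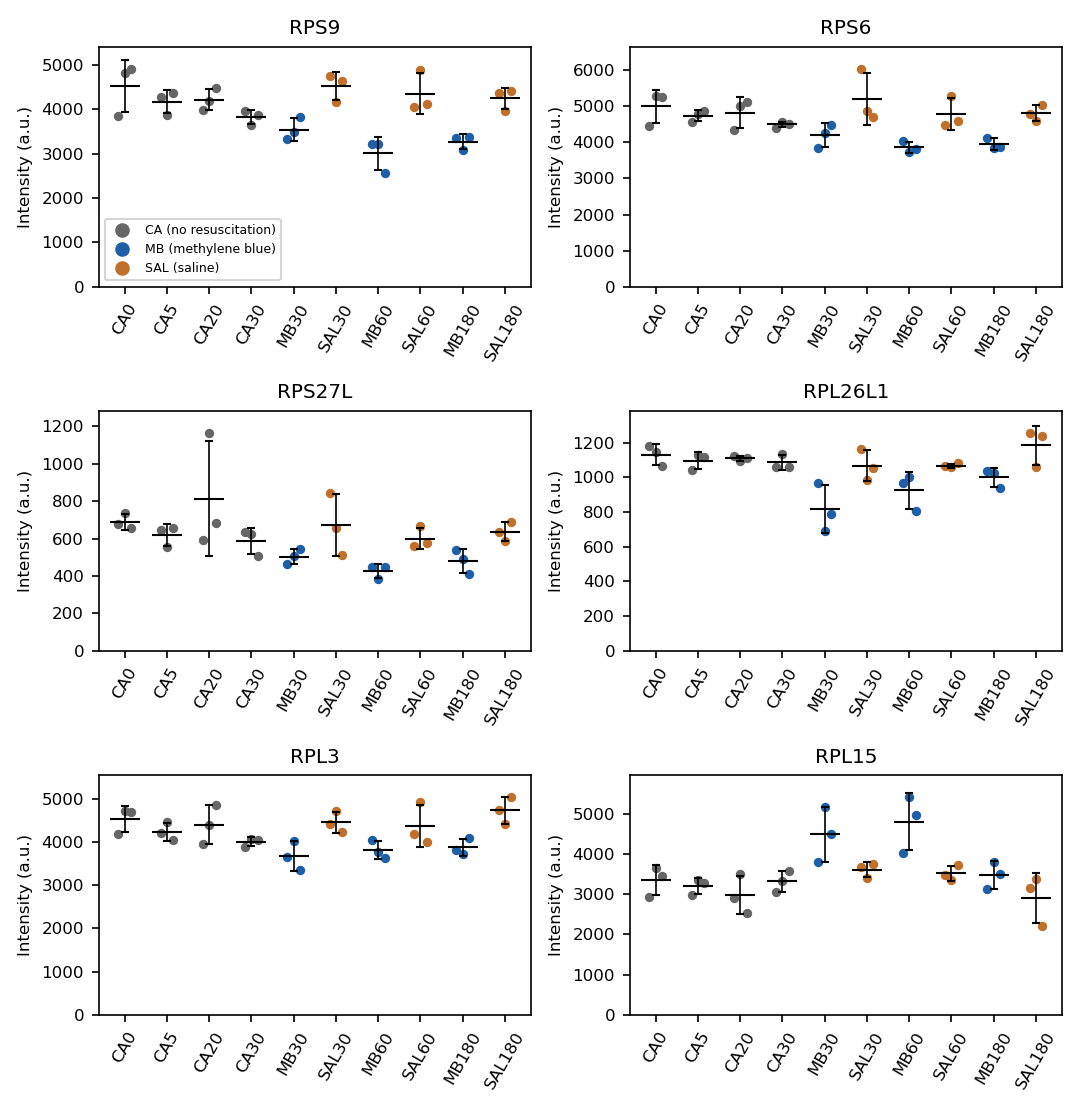
Intensity (y axis, arbitrary units, from 0) of RPS9, RPS6, RPS27L, RPL26L1, RPL3 and RPL15 in the 10 groups (x axis). Points are arrays, and black lines are the group mean with the standard deviation (n = 3). RPS9 lies between 2573 and 3819 on the MB arrays, below all SAL arrays, and RPL15 lies above SAL in MB30 and MB60.

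At single times few genes passed. Against SAL30, only RPL26L1 fell in MB30 (1 of 62; all probe sets 4.09%, with 2.4% higher and 1.69% lower), by 0.39 ± 0.11 (log2, SE, adjusted p = 0.0455). That call was lost in 18 of 30 fits that left out 1 array, with an adjusted p up to 0.196: any SAL30 array, MB30 replicate 2 or 3, CA0 replicate 2 or 3, CA5 replicate 1 or 2, CA20 replicate 1 or 3, any CA30 array, SAL60 replicate 1 or 3, SAL180 replicate 1, or MB180 replicate 2. RPS9 (-0.35) and RPS24 (-0.35) followed without passing (adjusted p = 0.0652 and 0.0735). Against SAL60, only RPS9 fell in MB60 (1 of 62; all probe sets 1.52%, with 0.726% higher and 0.798% lower), by 0.54 ± 0.11 (adjusted p = 0.013), and this was lost without SAL60 replicate 2 or MB60 replicate 3 (adjusted p up to 0.126). RPS6 (-0.31) and RPL15 (0.44) came next (adjusted p = 0.122 and 0.126). An unadjusted p under 0.05 was reached by 14 genes at 30 min and 4 at 60 min (all probe sets 21.3% and 17.3%).

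At 180 min, 0 of 62 genes passed against saline in limma (all probe sets 1.9%, with 1.28% higher and 0.619% lower), with 16 at an unadjusted p under 0.05 (all probe sets 18.6%). RPS9 (-0.37, adjusted p = 0.0715), RPL23 (-0.31) and RPL3 (-0.29) had the lowest p-values. The median log2 difference of the 62 genes was -0.15 for MB30, -0.057 for MB60 and -0.10 for MB180, each against saline of the same time. With 1 array left out they ran from -0.21 to -0.064 (without MB30 replicate 2 and replicate 1), from -0.15 to 0.033 (without MB60 replicate 3 and SAL60 replicate 2) and from -0.16 to -0.030 (without MB180 replicate 3 and replicate 1), so that the sign at 60 min turned without 1 array. A test of whether the difference between methylene blue and saline varied between times passed for 0 of 62 genes (all probe sets 0%), with 1 at an unadjusted p under 0.05 (all probe sets 2.88%). A test of any difference among the 10 groups passed for 5 of 62 genes (all probe sets 15.3%): RPS9 (adjusted p = 0.00197), RPL15 (0.0105), RPL26L1 (0.0219), RPS27L (0.0274) and RPS6 (0.028).

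The comparisons of methylene blue with CA0 use the same MB arrays and share the CA0 arrays with each other and with the saline comparisons, so their values stand beside the others and add no separate evidence. In MB30, 3 of 62 genes fell and 0 rose (all probe sets 12.2%, with 4.59% lower and 7.58% higher), namely RPL26L1 (-0.47, adjusted p = 0.00734), RPS9 (-0.35, 0.0407) and RPL3 (-0.30, 0.0477). This count was 6 without CA0 replicate 1 and 1 without CA0 replicate 2, CA0 replicate 3, MB30 replicate 2 or MB30 replicate 3. In MB60, RPS9 (-0.59, adjusted p = 0.00152), RPS27L (-0.68, 0.0165) and RPS6 (-0.37, 0.0201) fell and RPL15 rose (0.51, 0.0237), 4 of 62 (all probe sets 12.5%, with 5.49% lower and 7.05% higher), with 2 left without CA0 replicate 2 and 1 without MB60 replicate 2. In MB180, RPS9 (-0.46, adjusted p = 0.0106), RPS24 (-0.41, 0.0263), RPL19 (-0.39, 0.0374) and RPS6 (-0.34, 0.0398) fell, again 4 of 62 (all probe sets 9.41%, with 3.71% lower and 5.7% higher). None passed without CA0 replicate 2, CA0 replicate 3 or MB180 replicate 2, and 2 did without MB180 replicate 3. An unadjusted p under 0.05 was reached by 15 genes in MB30, 13 in MB60 and 18 in MB180 (all probe sets 27.8%, 28.7% and 25.7%). The median log2 differences were -0.13, -0.14 and -0.16, against 0.036, 0.0068 and 0.042 over all probe sets, and ran from -0.22 to -0.047, from -0.22 to -0.065 and from -0.25 to -0.086 with 1 array left out.

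Array measures moved with the treatment. In the fit with the 3'/5' ratio as a covariate, the 3 genes that passed were RPS9 at -0.37, RPL26L1 at -0.29 and RPS6 at -0.21 (adjusted p = 0.00437, 0.0238 and 0.044), while the share of all probe sets was 8.66%. Without the 5 arrays that stood apart, 9 genes fell and 1 rose, RPL15 (all probe sets 14.9%). RPL12, RPL19, RPL8, RPL23, RPL27A, RPL38 and RPS15 then no longer passed, and RPS9 had -0.37 (adjusted p = 0.00183) and RPS6 -0.23 (0.0109). The spiked hybridization controls ran from 9.86 to 10.9 on the MB arrays and from 10.1 to 10.6 on the SAL arrays (mean log2 intensity). With them as a covariate 16 genes fell and 1 rose (all probe sets 25.5% called, 2340 higher and 1940 lower).

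Values relative to the set itself were taken by centring each array on the ribosomal protein genes, which moved the median of all probe sets by 0.11. This balances the set around 0 by construction, so its split into higher and lower says nothing about the set's direction. Relative to the rest of the set, RPS9, RPS19, RPS6, RPL12 and RPS27L were lower and RPL15, RPL11, RPL21, RPS4X, RPL17, RPS27A and RPS12 higher in methylene blue than in saline. That is 5 lower and 7 higher, beside 16 and 1 under the deposited scaling, and 6 of these 12 passed with the same sign in both. Of all 16799 probe sets, 710 were lower and 3307 higher under this centring (23.9% called). RPS9 and RPS6 kept their call in the mean over times in all 45 alternative fits, and RPL26L1 in all but this centring. Brightness differed as well: probe sets with a mean log2 value of up to 7 had a median difference of 0.13 between methylene blue and saline, those between 9 and 11 had -0.051 and those between 12 and 13 had -0.0039. In that last range, which holds 39 of the ribosomal protein genes, 10 of these 39 fell, with a median of -0.11. Of all 249 probe sets of the range 10.8% fell, a share that includes these 39.

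For several of the genes a dimmer probe set went the other way. For 21 genes, 25 further probe sets passed the filter, with a median of their mean intensities of 180, where the brightest probe sets of these genes all had at least 3955. In methylene blue against saline, 7 of the 25 rose and 2 fell (36% called, all probe sets 25.2%, with 13.8% higher and 11.4% lower). Without the 5 arrays that stood apart, 7 of the 25 rose and 0 fell (all probe sets 14.9% called, 1398 higher and 1107 lower). With all arrays, 18.5% of all probe sets with a mean log2 value of up to 7 rose and 4.58% fell. Between 7 and 9 these shares were 12.95% and 12.14%. Whether the 25 differ from other probe sets of their brightness was not tested. RPS28 had 226 ± 39.8 with methylene blue and 118 ± 14 with saline on a dim probe set (SD, n = 9 each), a log2 difference of 0.84 (adjusted p = 4.45e-06), where its brightest had -0.14 (0.152). RPS6 had 0.59 on its dim probe set (220 ± 56.4 with methylene blue, 137 ± 16.4 with saline, adjusted p = 0.0021), the opposite of its brightest at -0.30. RPL23 (0.60, with -0.16 on another), RPL27 (0.51), RPL13A (0.50) and RPL24 (0.43) also rose on a dim probe set with a negative estimate on the bright one, and RPL12 had 0.22 (adjusted p = 0.27). No other tested probe set of RPS6, RPL23 or RPL12 passed in the direction of the bright one. RPL17 rose by 0.52 on a dim probe set beside 0.032 on its bright one. RPL38 fell on both of its probe sets, by 1.07 on the dim one, and RPS25 fell by 0.40 on a dim one beside -0.090. RPS9, RPS19, RPL3, RPL15, RPL26L1 and RPS27L had 1 probe set each, so that no such check exists for them. Which transcript the dim probe sets detect was not tested.

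**Figure D5:**
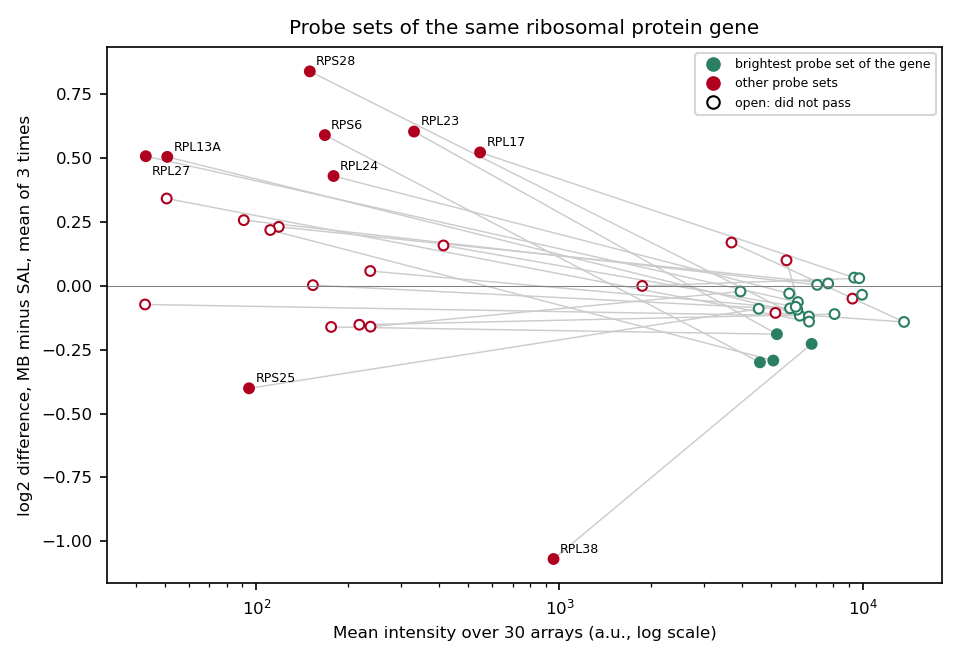
Log2 difference between methylene blue and saline (y axis, mean of 3 times) against mean intensity over 30 arrays (x axis, log scale) for the 21 genes with several tested probe sets. Green points are the brightest probe set of a gene, red points its others, grey lines join them, and filled points have an adjusted p under 0.05. Of the 25 red points 7 are called above 0 and 2 below.

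Genes that work with the ribosome were set beside it as whole lists, described by counts. Of 20 other 5'TOP and translation genes, 6 fell and 2 rose in the mean of methylene blue against saline (all probe sets 11.4% lower and 13.8% higher). FAU, which encodes a small subunit protein under a name outside the rule, fell by 0.22 (adjusted p = 0.0241), RACK1, a scaffold on the small subunit, by 0.19 (0.0316), and the elongation factor 1 subunits EEF1G and EEF1D by 0.37 (0.000315) and 0.52 (0.00196). NAP1L1 and EIF3K fell too, while VIM, which encodes an intermediate filament and rose by 0.51 (0.00663), and NPM1 (0.15, 0.0474) were higher. With the 3'/5' ratio as a covariate, EEF1G (-0.32, adjusted p = 0.013) and VIM (0.68, 0.00729) were the genes of this list that passed. Without the 5 arrays that stood apart, 3 of this list fell and 1 rose (all probe sets 14.9% called).

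Of 25 ribosome biogenesis genes, SBDS (-0.29, adjusted p = 0.00363) and POLR1C, a subunit of RNA polymerases I and III (-0.37, 0.00626), fell and NPM1, which is on both lists, rose. SBDS and POLR1C kept their call with the 3'/5' covariate (-0.35 and -0.45, adjusted p = 0.012 and 0.0169), and NPM1 did not. Of 16 translation control genes, EIF4G1, the scaffold of the cap-binding complex, fell by 0.40 (adjusted p = 3.77e-05) and the kinase EIF2AK2 by 0.66 (0.0173), while the mTOR activator RHEB (0.32, 0.041), EIF2S1 (0.22, 0.00255) and the cap-binding EIF4E (0.27, 0.0251) rose. With the 3'/5' covariate, EIF4G1 (-0.40, adjusted p = 0.00123) and EIF2S1 (0.19, 0.049) passed, and EIF2AK2 (0.056), RHEB (0.0863) and EIF4E (0.292) did not. Without the 5 arrays, 2 biogenesis genes fell and 0 rose, and 2 translation control genes fell and 1 rose. Of 58 mitochondrial ribosome genes 5 rose and 12 fell, and of 59 respiratory chain genes 3 rose and 10 fell (all probe sets 13.8% higher and 11.4% lower). With the 3'/5' covariate these counts were 0 and 7 for the mitochondrial ribosome and 0 and 4 for the respiratory chain (all probe sets 8.66% called). Without the 5 arrays they were 2 and 5, and 1 and 6 (all probe sets 14.9% called). Centred on the cytosolic ribosomal protein genes they turned to 8 higher and 2 lower and to 10 higher and 4 lower. All probe sets shifted the same way, with 3307 higher and 710 lower of 16799. This centring moved the median of all probe sets by 0.11, so the turn follows from it and says nothing particular about the 2 lists. With quantile normalization, 6 rose and 11 fell for the mitochondrial ribosome, and 6 rose and 8 fell for the respiratory chain (all probe sets 1924 higher and 2402 lower). With median centring these counts were 1 and 13, and 2 and 10 (all probe sets 1953 higher and 2403 lower). The median log2 differences of the 5 lists lay between -0.044 and 0.072. Outside the rule are 8 probe sets that name a ribosomal protein gene together with another gene. Of these, 1, shared by DUT and RPL36, passed (-0.32, adjusted p = 0.00319).

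Few single cell type markers passed, but the oligodendrocyte and microglia lists had lower medians than the ribosomal protein genes. The median log2 difference of methylene blue against saline was -0.33 for the oligodendrocyte markers (-0.55 for MB30, -0.42 for MB60 and -0.077 for MB180) and -0.19 for the microglia markers, beside -0.11 for the ribosomal protein genes and 0.024 for all probe sets. With the 3'/5' covariate these medians were -0.14 and -0.16, and without the 5 arrays -0.19 and -0.069. The medians were 0.083 for neuron, -0.056 for astrocyte, 0.058 for endothelial, 0.053 for smooth muscle and 0.10 for red blood cell markers. In the mean of methylene blue against saline, 1 of 7 neuron markers rose, 1 of 7 astrocyte markers rose and 1 fell, 1 of 6 oligodendrocyte markers fell, 1 of 4 microglia markers fell, 1 of 8 endothelial and 1 of 5 smooth muscle markers rose, and 0 of 3 red and 0 of 1 white blood cell markers passed. Of all probe sets, 25.2% were called. Without the 5 arrays, 0 neuron, astrocyte, microglia or endothelial markers passed (all probe sets 14.9% called). In that fit 1 oligodendrocyte marker fell and 1 smooth muscle marker rose. The summed intensity of the neuron markers lay between 30722 and 51983 on the MB arrays and between 30187 and 41152 on the SAL arrays. The astrocyte markers summed to 24229 to 37704 on the MB arrays and 28258 to 36077 on the SAL arrays, and the oligodendrocyte markers to 23207 to 45259 on the MB arrays and 27193 to 36764 on the SAL arrays. The microglia markers summed to 1167 to 1841 on the MB arrays and 1095 to 3650 on the SAL arrays. Over the 3 times together the ranges overlapped for all of these, and no defining marker was at 0. At 180 min alone the astrocyte sums did not overlap, with 24229 to 27345 in MB180 and 29402 to 33583 in SAL180. The dim white blood cell markers did not overlap there either, with 238 to 320 in MB180 and 173 to 224 in SAL180. Their part in the ribosomal protein results was not tested.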

How the data were processed

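Each array's deposited table holds a linear intensity per probe set, made by the authors with GCOS per the submitters' processing notes. Not given in the sources used here were the version, the signal algorithm and any further step. On every array the mean without the lowest and highest values was close to 300.05. Of 24123 probe sets, 124 controls were left out of the tests. Gene symbols came from the platform's annotation.

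A pseudocount of 16 was added before taking log2. After leaving out those with a mean below the 30th percentile, 16799 probe sets were tested. One limma 3.58.1 fit in R 4.3.3 held a mean for each of 10 groups (20 residual degrees of freedom) and let the variance follow the mean signal. Tests were two-sided, and p-values were adjusted by Benjamini-Hochberg per comparison, with a threshold of 0.05. A fold change is on the log2(intensity + 16) scale and understates the change of dim genes. The arrays give no counts, so 3 arrays per group limit the precision, and p-values measure the spread between animals as labelled. On simulated data for the mean of methylene blue against saline, 91% of changes of 1 and 58% of changes of 0.5 (log2) were recovered among 16799 probe sets, with 5 false calls. Noise was drawn independently for each probe set, with 100 probe sets changed by each size. The real probe sets share array variation and 25.2% were called, so these rates need not hold for them.

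The members and lists were chosen with earlier results of these data known. Named genes were members that passed (up to 10 in each direction by size, here with the 6 smaller ones added), the 3 with the lowest p in each comparison, the 5 brightest and 5 dimmest, the 3 steadiest and 3 most variable, a fixed set, and genes whose probe sets differed in direction. RPS3, RPS14, RPL39L and RPL3L of the fixed set, and RPL10, which shares its probe sets with another symbol, were not analysed here as members. The 5 lists were other 5'TOP and translation genes, ribosome biogenesis, translation control, mitochondrial ribosome and respiratory chain; marker lists covered 8 cell types. Alternatives were other pseudocounts, filters, normalizations, fits, adjustments and each array left out. Some were added after seeing the data, namely covariates (3'/5' ratio or hybridization controls), 5 arrays left out, and centring on the members. Replicate numbers do not pair the arrays (28 of 135 same-number pairs had a correlation of residuals above 0.1, median -0.0034).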

Additional observations from a re-analysis of the deposited data

Results flagged for a closer look

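The array carries control probe sets for the RNA part of the ribosome, which took no part in the comparisons above. They were flagged where all 3 arrays of a group lay above the highest of the 3 CA0 arrays. The share of all probe sets that meet this rule was not counted. The 18S probe set averaged 1092 in MB30, 1307 in MB60 and 1236 in MB180, against 902, 813 and 615 in SAL30, SAL60 and SAL180 and 840 in CA0. Its MB arrays ran from 927 to 1588 and its SAL arrays from 538 to 984, with an overlap. The 28S probe set averaged 688 in MB180, with 364, 913 and 787, against 310 in SAL180 and 238 in CA0. It also averaged 526 in MB30 and 652 in MB60, against 161 in SAL30 and 177 in SAL60. Those MB groups did not meet the rule, as CA0 replicate 1 had 349. The 5S probe set averaged 247 in SAL60 and 334 in SAL180, against 117 in CA0, where MB60 had 181 and MB180 196. Labelling starts from the poly(A) tail, which ribosomal RNA lacks, so these signals do not measure its amount. Why they differ was not tested.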

How the results depend on the processing

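For the mean of methylene blue against saline, 17 genes passed (all probe sets 25.2%), and 3 with the 3'/5' ratio as a covariate (8.66%, median of the set 0.011). Without the 5 arrays that stood apart 10 passed (all probe sets 14.9%), and 11 with adjustment over all comparisons together (13.9%). With 1 array left out, 14 to 19 passed. Quantile normalization gave 23 (22 lower, all probe sets 25.8%) and the replicate block 17 (16 lower, all probe sets 24.9%). The block changed no other count by over 1.5 times. For the comparisons that follow, the shares of all probe sets under each alternative are not given. A moved count there need not be particular to the ribosomal protein genes. MB30 against SAL30 (1 gene) gave 4 with quantile normalization, 2 with median centring, 3 with all probe sets, 0 with the compared groups alone, no intensity trend, the 3'/5' covariate, without the 5 arrays, or centred on the ribosomal protein genes (median -0.0021), and 0 to 2 with 1 array left out. MB60 against SAL60 (1 gene) gave 3 with quantile normalization, 2 with all probe sets, 0 in the same fits except no intensity trend, and 0 to 1 with 1 array left out. MB180 against SAL180 (0 genes) gave 1 with median centring, 6 with array weights and 2 with all probe sets, and a median of 0.058 with the 3'/5' covariate. MB30 against CA0 (3 genes) gave 5 with quantile normalization or without the 5 arrays, 1 with no trend, the covariate or joint adjustment, 0 with the groups alone, 1 to 6 with 1 array left out, and a median of 0.072 with the covariate. MB60 against CA0 (4 genes) gave 11 with quantile normalization, 8 with median centring, 7 without the 5 arrays, 2 with the groups alone or centred on the set (median -0.014), 1 with the covariate (median 0.050), and 1 to 5 with 1 array left out. MB180 against CA0 (4 genes) gave 10 with array weights, 8 with all probe sets, 7 with median centring or without the 5 arrays, 2 with no trend or joint adjustment, 0 with the groups alone, the covariate (median -0.019) or centring on the set (median -0.025), and 0 to 6 with 1 array left out. Any difference among groups (5 genes) gave 10 with quantile normalization, 9 with all probe sets, 8 with array weights, 3 without the 5 arrays, 1 with the covariate or centring on the set, and 3 to 8 with 1 array left out (8 without CA0 replicate 1, 3 without MB60 replicate 2). The median was -0.20 in CA20 without the 5 arrays, which left only replicate 1 in that group, and -0.016 in CA30 centred on the set. Except for fewer samples in the fits without arrays, the cause was not tested. The 1237 other values of medians and counts moved less. For the 30 results of single genes that passed, 1163 alternative values kept the call, 187 lost it and none changed sign. Genes that had not passed could change sign: centred on the set, RPL5, RPSA, RPLP0 and RPLP1 had 0.024, 0.098, 0.018 and 0.089 in the mean of methylene blue against saline, where they were negative under the deposited scaling. The 3'/5' ratio and the treatment go together on these arrays, so no fit separates them fully, and dim probe sets such as RPL26 allow only a wide interval.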
